A study of Mus musculus with 7 samples.

Results

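Heat shock proteins and their J-domain cochaperones were examined in quadriceps muscle of mice that had received a liver-directed viral vector. Members were the rows of the deposited count table whose gene symbol names a small heat shock protein, an Hsp60 or Hsp10, Hsp70, Hsp110 or Hsp90 protein, or a numbered DNAJA, DNAJB or DNAJC protein, together with Cryab, Bag3 and Hsf1, and without pseudogene symbols. The rule found 76 of 53819 genes, of which 67 were among the 14935 genes that passed the filter on low counts. All animals were wild-type C57BL/6J males, injected at 8 weeks of age through the tail vein with 200 µl of an adeno-associated virus of serotype 8 at 1e12 vector genomes per ml. The comparison was between 3 libraries from the AAV8-Alb-IGFBP1 vector and 4 from the AAV8-Alb-Null vector, sampled 54 days after injection, so that both groups carried a vector and no uninjected muscle was analysed. The series text describes the serotype by its tropism for the liver, so the muscle profiled here is not the tissue at which the vector was aimed. The labels do not say that each library came from its own mouse, and the p-values therefore describe only how far these samples spread, which could be technical in origin.

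Chaperones keep proteins from aggregating and help them fold. Hsp70 proteins bind and release unfolded stretches in cycles of ATP hydrolysis, which J-domain proteins start and exchange factors such as Hsp110 proteins and Bag3 complete. Small heat shock proteins hold unfolding proteins without ATP, and in striated muscle several of them sit at the sarcomere, where Bag3 and Hspb8 take part in the turnover of damaged Z-disc proteins. The transcription factor Hsf1 is released from chaperones under proteotoxic stress and binds inverted repeats of the letters GAA, the heat shock element, while the endoplasmic reticulum has its own element and factors.

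The sequences before the start sites of 6 members are shown because they hold the elements described above for heat-inducible and endoplasmic reticulum chaperone genes. The 6 were chosen after their values were seen and because a match was found, so they show what the elements look like and support no comparison. Each is the 250 bases before the start site from RefSeq on GRCm38.p6, 5′ to 3′ on the gene's strand: Hspa1a at chr17:34972157-34972406 (minus strand), Hspa1b at chr17:34959239-34959488 (minus), Dnaja1 at chr4:40722218-40722467 (plus), Hspb1 at chr5:135887669-135887918 (plus), Hspd1 at chr1:55087933-55088182 (minus) and Hspa5 at chr2:34771840-34772089 (plus). Capitals mark the heat shock element in the first 5 and the endoplasmic reticulum stress response element in Hspa5.
Hspa1a: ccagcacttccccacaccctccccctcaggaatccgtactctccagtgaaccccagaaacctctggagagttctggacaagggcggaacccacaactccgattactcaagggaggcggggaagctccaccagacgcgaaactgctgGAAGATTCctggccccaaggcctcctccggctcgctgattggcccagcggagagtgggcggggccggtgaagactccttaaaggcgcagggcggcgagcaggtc
Hspa1b: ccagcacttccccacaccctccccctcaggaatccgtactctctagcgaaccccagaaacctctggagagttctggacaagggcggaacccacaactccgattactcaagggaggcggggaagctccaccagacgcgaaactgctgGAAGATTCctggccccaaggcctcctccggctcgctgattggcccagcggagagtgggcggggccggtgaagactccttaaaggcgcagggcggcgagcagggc
Dnaja1: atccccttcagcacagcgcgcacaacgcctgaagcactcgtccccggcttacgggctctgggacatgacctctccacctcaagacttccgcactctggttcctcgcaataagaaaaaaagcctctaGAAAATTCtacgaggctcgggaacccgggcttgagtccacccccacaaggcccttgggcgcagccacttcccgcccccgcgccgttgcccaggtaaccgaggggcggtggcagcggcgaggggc
Hspb1: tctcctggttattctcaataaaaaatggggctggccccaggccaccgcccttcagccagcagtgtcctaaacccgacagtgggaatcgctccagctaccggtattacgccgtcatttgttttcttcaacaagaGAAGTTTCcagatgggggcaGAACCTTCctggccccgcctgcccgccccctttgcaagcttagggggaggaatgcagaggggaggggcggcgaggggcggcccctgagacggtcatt
Hspd1: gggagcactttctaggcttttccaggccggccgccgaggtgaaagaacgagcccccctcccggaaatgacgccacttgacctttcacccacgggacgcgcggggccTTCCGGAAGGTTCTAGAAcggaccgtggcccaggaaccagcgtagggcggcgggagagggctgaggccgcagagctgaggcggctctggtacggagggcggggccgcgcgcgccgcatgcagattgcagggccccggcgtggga
Hspa5: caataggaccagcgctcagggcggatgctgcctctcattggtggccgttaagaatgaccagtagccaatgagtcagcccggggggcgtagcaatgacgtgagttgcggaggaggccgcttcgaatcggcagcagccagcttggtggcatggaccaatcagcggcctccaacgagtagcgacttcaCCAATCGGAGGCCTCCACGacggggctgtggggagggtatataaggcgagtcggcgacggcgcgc

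Hspa1a and Hspa1b differ at 3 of these 250 bases (98.8% identity), and both hold the element 104 bases before the start. Dnaja1 holds 1 match, Hspb1 holds 2 that are apart, and Hspd1 holds 3 that overlap in 1 run. RefSeq gives Dnaja1 3 start windows and Hspd1 2, and only the 1 with a match is shown for each. Dnajb1 has no match in either of its 2 windows. The heat shock element was searched as GAANNTTC or TTCNNGAA, each its own reverse complement, in windows from 250 bases before to 50 after each start. It was in 17 of the 59 members with a window (28.8%), against 17.0% of all genes with one. The other 17 members had no window and were not searched, among them Cryab, Hspa8, Hspa9, Hsp90aa1 and Hsp90ab1. The longer form of 3 units, GAANNTTCNNGAA or its reverse complement TTCNNGAANNTTC, which overlaps the shorter form, was in Dnajb6, Hspd1, Hspe1 and Hsph1 (6.78%, against 0.662% of all genes). The search windows of Hspd1 and Hspe1 overlap on opposite strands and hold the same run of matches. That run is therefore counted for both genes, in the shorter form as well. The endoplasmic reticulum element, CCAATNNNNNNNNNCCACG on either strand, was in Dnajc3, Hsp90b1 and Hspa5 (5.08%, against 0.137%). A match is a description of these letters and says nothing of binding in these muscles.

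Library totals ranged from 38947453 to 51210360 counts, and counts are given below as CPM, that is, relative to library totals after TMM scaling. The vector's gene was checked first: Igfbp1, which encodes insulin-like growth factor binding protein 1, was at 0 counts in AAV8-Null libraries 1 to 3 and at 8 counts (0.195 CPM) in library 4, against 202, 1425 and 142 counts (4.39, 34.5 and 3.14 CPM) in AAV8-IGFBP1 libraries 1 to 3. The groups did not overlap and the log2 fold change was 8.21 with SE 1.54 (edgeR adjusted p = 0.0691, DESeq2 adjusted p = 0.0128). Muscle fibre markers summed to 138543 to 158650 CPM in AAV8-Null and 154537 to 169980 CPM in AAV8-IGFBP1, with none at 0. Myh4 had the highest level of the 9, with means of 60650.1 and 68182.5 CPM. Log2 fold changes of the 9 were above 0 for 6 and below 0 for 3. They ran from -0.45 for Myh1 and -0.35 for Mb to 0.17 for Myh4 and 0.25 for Actn3, and edgeR called 0. The summed adipocyte markers were at 1587 CPM in AAV8-IGFBP1 library 2 and at 243 to 492 CPM in the other libraries, and this library also stood apart on the first principal component (45.2 against -25.7 to 12.6). Fibroblast markers summed to 487 to 798 CPM in AAV8-Null and 311 to 557 CPM in AAV8-IGFBP1, and tenocyte markers to 176 to 406 and 81.0 to 326 CPM. Endothelial markers summed to 205 to 265 and 208 to 214 CPM, and macrophage markers to 65.5 to 103 and 54.2 to 99.1 CPM. Log2 fold changes were below 0 for 6 of 7 fibroblast, 8 of 8 tenocyte, 7 of 7 endothelial and 6 of 8 macrophage markers. They were above 0 for all 8 adipocyte markers, and 50.1% of all genes lay below 0. In these lists edgeR and limma-voom called 0, and DESeq2 called 1, the fibroblast gene Col3a1. Schwann cell markers did not overlap as a sum, at 37.7 to 54.9 CPM in AAV8-Null and 31.0 to 36.8 CPM in AAV8-IGFBP1. None of the 6 was at 0 in a library, all 6 lay below 0 in log2 fold change, with a median of -0.37, and edgeR called 0 of them (3 at an unadjusted p under 0.05), DESeq2 2 and limma-voom 0. The part of these markers in the values of the members was not tested. In bulk tissue, fewer cells of a type and less RNA per cell cannot be told apart.

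At the level of transcript per length, small heat shock proteins and the cytosolic chaperones Hspa8 and Hsp90ab1 led the members. Hspb6 had a mean level over the 7 libraries of 584 CPM per kb of transcript, Cryab 576, Hspa8 542 and Hsp90ab1 481, and the library ranges of these 4 genes overlapped. Together they held 47.6% of all counts of the members. Hspb8 followed with a level of 194 CPM per kb, Hspb1 with 148, the mitochondrial Hsp70 gene Hspa9 with 147 and Hspb7 with 115. Lower in level were Hsp90aa1 at 26.7, Hspa1a at 19.2, Hspa1b at 17.9 and Dnajb1 at 4.34 CPM per kb. Counts of 9 members were too low to test. These were Dnajb3, Dnajb13, Dnajc6, Dnajc22 and Hspb9, with at most 9 counts in any library, and Dnajb7, Dnajb8, Dnajc5b and Dnajc5g, with 0 in each of the 7.

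**Figure D1:**
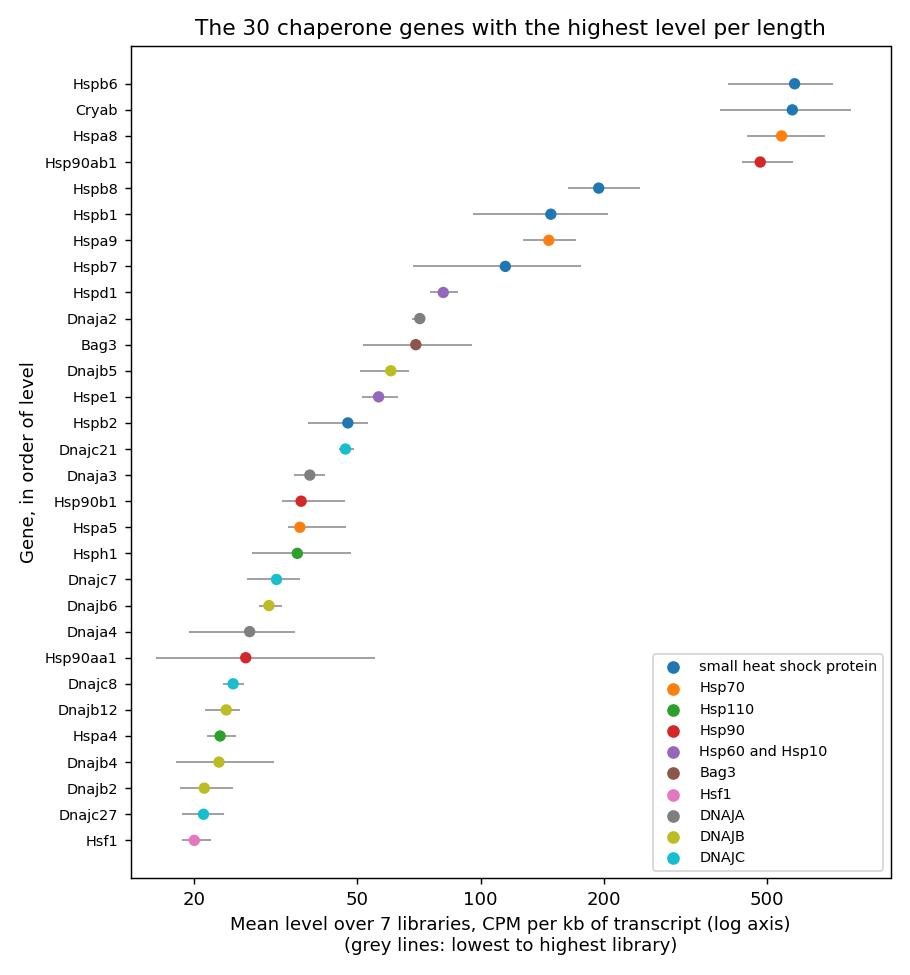
Mean level over 7 libraries of the 30 members with the highest level, in CPM per kb of transcript on a log axis, coloured by role, with grey lines from the lowest to the highest library. Hspb6, Cryab, Hspa8 and Hsp90ab1 lead, and Hsp90aa1 has the longest line relative to its level.

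No member passed the threshold between the groups in the main test, and most fold changes pointed to lower levels in AAV8-IGFBP1. edgeR called 0 of 67 members at an adjusted p under 0.05, against 0.583% of all genes tested (0.388% higher and 0.194% lower), and the smallest adjusted p was 0.124, of Cryab. By DESeq2, 3 members were lower (4.48%), namely Cryab, Hspb1 and Hspb6, against 3.28% of all genes tested by it (1.71% lower and 1.57% higher), and by limma-voom 0 members were called, against 0.415% of all genes. At an unadjusted p under 0.05, edgeR gave 16 members, all with a negative log2 fold change (23.9%, against 6.91% of all genes in that direction), and 0 with a positive one (against 5.97%). Log2 fold changes were below 0 for 50 members and above 0 for 17, so that 74.6% were below 0, against 50.1% of all genes. The sizes were small: the median log2 fold change was -0.07 over members and -0.00 over all genes, and the median absolute log2 fold change was 0.0986 over members and 0.127 over all genes.

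Groups did not overlap for 7 members (10.4%, against 12.3% of all genes, 6.01% lower and 6.33% higher). Cryab, Hspb6, Hspb7, Dnaja1, Dnajb2 and Hspa4l were lower in each of the 3 AAV8-IGFBP1 libraries than in any AAV8-Null library, and Dnajb12 was higher. With fewer libraries, groups that do not overlap are more common among all genes too. The count was 14 without AAV8-Null library 2 (20.9%, against 19.1% of all genes), 18 without AAV8-Null library 4 (26.9%, against 18.9%), 12 without AAV8-IGFBP1 library 1 (17.9%, against 19.4%) and 17 without AAV8-IGFBP1 library 3 (25.4%, against 22.4%). The members' share of all counts was 0.941%, 0.847%, 0.967% and 0.827% in AAV8-Null libraries 1 to 4 and 0.722%, 0.723% and 0.771% in AAV8-IGFBP1 libraries 1 to 3. AAV8-Null library 3 held the highest level for 24 of 67 members (35.8%, against 17.2% of all genes). The lowest level was in AAV8-IGFBP1 library 2 for 20 members (29.9%, against 16.2%) and in AAV8-IGFBP1 library 1 for 17 (25.4%, against 12.2%).

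**Figure D2:**
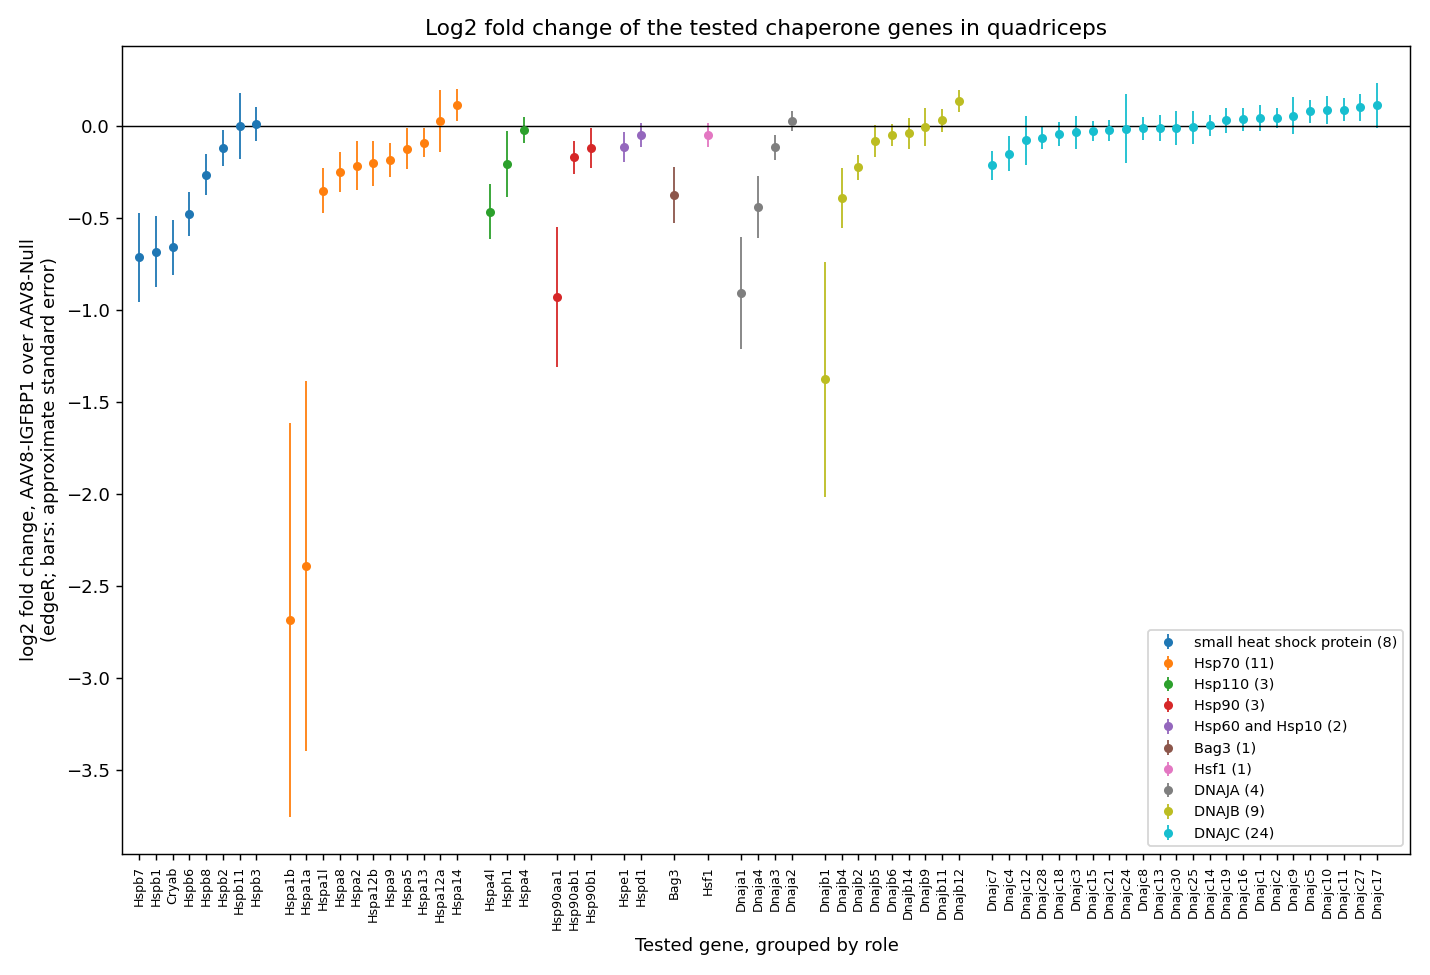
Log2 fold change of the tested members, 1 not drawn, AAV8-IGFBP1 over AAV8-Null, grouped by role and ordered by size within it, with bars for the approximate standard error. Hspa1b (-2.68), Hspa1a (-2.39) and Dnajb1 (-1.38) lie lowest with the longest bars, and the 24 DNAJC genes lie between -0.21 and 0.11.

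The small heat shock protein genes with the highest levels lay lower in AAV8-IGFBP1, without passing edgeR's threshold. Of 9 members 8 were tested, 7 lay below 0 in log2 fold change, with a median of -0.37. edgeR called 0 of the 8 and gave 5 at an unadjusted p under 0.05, limma-voom called 0 and DESeq2 called 3. Cryab, which encodes alpha-B crystallin, a chaperone of desmin and other sarcomeric proteins, was at 893, 605, 716 and 840.5 CPM in AAV8-Null libraries 1 to 4 and at 459, 428 and 563 CPM in AAV8-IGFBP1 libraries 1 to 3. The groups did not overlap, AAV8-Null library 2 being the control nearest to the treated libraries. Means were 764 ± 129 (SD, n = 4) and 483 ± 70.3 CPM (SD, n = 3), a difference on the log2 scale of -0.66 ± 0.15 (SE; edgeR adjusted p = 0.124, DESeq2 adjusted p = 0.000391). Over the alternatives the adjusted p of Cryab ran from 0.000391 to 0.337.

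Hspb6, the small heat shock protein also called Hsp20, was at 945, 816, 871 and 988 CPM in AAV8-Null and at 547, 626 and 773 CPM in AAV8-IGFBP1. Again the groups did not overlap, and AAV8-IGFBP1 library 3 was the treated library nearest to the controls. The log2 fold change was -0.48 with SE 0.12 (edgeR adjusted p = 0.133, DESeq2 adjusted p = 0.00491). Hspb1, which binds actin filaments and small heat shock protein partners, was at 190.2, 121, 190.2 and 157 CPM in AAV8-Null and at 91.7, 89.2 and 126 CPM in AAV8-IGFBP1. Only AAV8-Null library 2 and AAV8-IGFBP1 library 3 overlapped, and the log2 fold change was -0.68 with SE 0.19 (edgeR adjusted p = 0.223, DESeq2 adjusted p = 0.00389). Hspb7, a filamin-binding protein of heart and skeletal muscle, was at 488, 298, 302 and 441 CPM in AAV8-Null and at 215, 189 and 294 CPM in AAV8-IGFBP1. Its groups were separate by a narrow gap, between AAV8-IGFBP1 library 3 and AAV8-Null library 2, and its log2 fold change was -0.72 with SE 0.24 (edgeR adjusted p = 0.305, DESeq2 adjusted p = 0.145).

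Hspb8, the partner of Bag3, was at 349.8, 444, 409 and 316 CPM in AAV8-Null and at 316, 296 and 336 CPM in AAV8-IGFBP1. These groups overlapped, and the controls lay in another order than for Cryab, with library 2 highest. The log2 fold change of Hspb8 was -0.27 with SE 0.11 (edgeR adjusted p = 0.371). The remaining tested members of the role, Hspb2, Hspb3 and Hspb11, had log2 fold changes of -0.12, 0.01 and -0.00. Hspb11 belongs here by symbol, and its product is also known as a part of the intraflagellar transport complex.

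Slow fibre markers were also lower in the AAV8-IGFBP1 libraries on average. Their summed level was 2030, 657, 1292 and 1839 CPM in AAV8-Null libraries 1 to 4 and 282, 549 and 897 CPM in AAV8-IGFBP1 libraries 1 to 3. The ranges thus overlapped, 657 to 2030 CPM against 282 to 897 CPM, and none of the 8 markers was at 0 in a library. All 8 had a log2 fold change below 0, with a median of -1.44. edgeR called 0 of them and gave 5 at an unadjusted p under 0.05, DESeq2 called 1 (Tnnc1) and limma-voom 0. Within AAV8-Null, the order of libraries 1, 4, 3 and 2 from high to low was shared by the summed slow fibre markers, Cryab and Hspb7. Hspb6 ran 4, 1, 3 and 2 and Hspb8 ran 2, 3, 1 and 4. Hspb1 ran 3, 1, 4 and 2, with libraries 3 and 1 nearly equal. Within AAV8-IGFBP1 the slow fibre sum and Hspb6 ran 3, 2 and 1, and Cryab, Hspb7, Hspb1 and Hspb8 ran 3, 1 and 2. The part of these markers in the values of the small heat shock proteins was not tested.

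**Figure D3:**
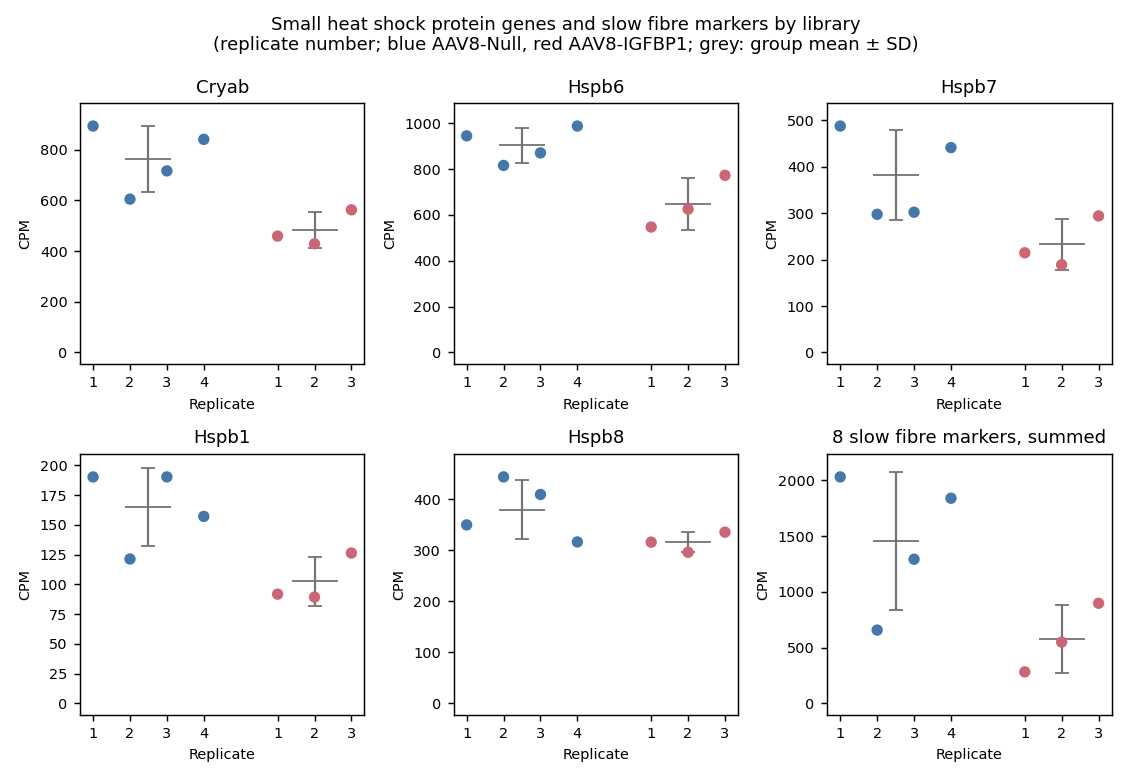
CPM of 5 small heat shock protein genes and of 8 slow fibre markers summed, by library, with grey bars for the group mean ± SD (blue, AAV8-Null, n = 4; red, AAV8-IGFBP1, n = 3). The 3 red points lie below the 4 blue points for Cryab, Hspb6 and Hspb7, and the slow fibre sum runs from 282 to 2030 CPM.

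Bag3, the exchange factor that links Hsp70 to small heat shock proteins, was at 201, 165, 244 and 179 CPM in AAV8-Null and at 132, 145 and 179 CPM in AAV8-IGFBP1. AAV8-IGFBP1 library 3 lay above AAV8-Null library 2 and just below AAV8-Null library 4, so the groups overlapped. Its log2 fold change was -0.38 with SE 0.15 (edgeR adjusted p = 0.361, DESeq2 adjusted p = 0.164).

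The stress-inducible Hsp70 genes had the lowest log2 fold changes of the members and the widest spread. Among the 11 tested Hsp70 genes, 9 were below 0 and the median log2 fold change was -0.21. edgeR called 0 and gave 3 at an unadjusted p under 0.05, and DESeq2 and limma-voom called 0. Hspa1a was at 75.1, 53.9, 193 and 27.0 CPM in AAV8-Null libraries 1 to 4 and at 5.39, 8.18 and 36.1 CPM in AAV8-IGFBP1 libraries 1 to 3. Hspa1b was at 69.2, 50.3, 177 and 17.5 CPM and at 4.91, 4.91 and 26.6 CPM in the same order. For both genes AAV8-Null library 3 was highest, AAV8-IGFBP1 libraries 1 and 2 were lowest, and AAV8-IGFBP1 library 3 lay above AAV8-Null library 4, so the groups overlapped. The highest library exceeded the lowest 35.8-fold for Hspa1a and 36.1-fold for Hspa1b.

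The log2 fold change was -2.39 with SE 1.00 for Hspa1a (edgeR adjusted p = 0.408) and -2.68 with SE 1.07 for Hspa1b (edgeR adjusted p = 0.386). For Hspa1a it was -1.65 without AAV8-Null library 3 and -3.69 without AAV8-IGFBP1 library 3, and for Hspa1b -1.91 and -3.99. The transcripts are near copies: of the 50-base stretches of Hspa1a, 58.8% are also in Hspa1b, and of those of Hspa1b 62.3% are in Hspa1a. How the counting split their reads is therefore uncertain. With the counts of both genes summed, the log2 fold change was -2.53 (edgeR adjusted p = 0.398).

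**Figure D4:**
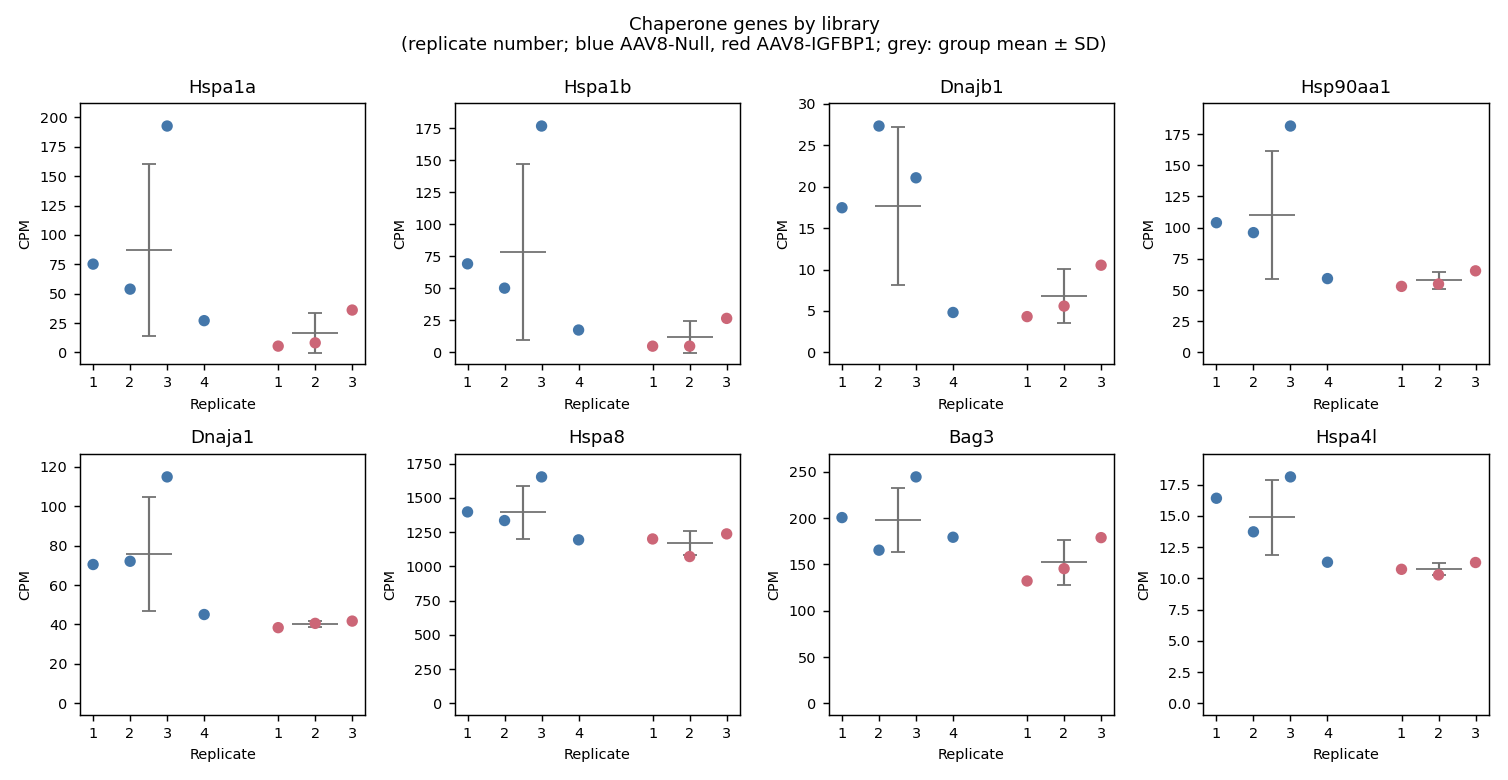
CPM of 8 members by library, with grey bars for the group mean ± SD (blue, AAV8-Null, n = 4; red, AAV8-IGFBP1, n = 3). AAV8-Null library 3 is highest in 7 of the 8 panels, Dnajb1 being the exception, and AAV8-Null library 4 lies near the AAV8-IGFBP1 libraries.

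Hspa8, the main Hsp70 of the unstressed cytosol, which heat can raise further, was at 1398, 1334, 1653 and 1194 CPM in AAV8-Null and at 1200.0, 1072 and 1237 CPM in AAV8-IGFBP1. Only AAV8-Null library 4 lay within the range of the treated libraries, and the log2 fold change was -0.25 with SE 0.11 (edgeR adjusted p = 0.372). Hspa1l, the Hsp70 gene best known from testis, was at 50.8, 48.0, 48.1 and 39.9 CPM in AAV8-Null and at 40.4, 29.6 and 39.6 CPM in AAV8-IGFBP1. Its groups overlapped at AAV8-Null library 4, with a log2 difference of -0.35 ± 0.12 (SE; edgeR adjusted p = 0.289). Its transcript shares 9.57% of its 50-base stretches with Hspa1a.

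The organelle Hsp70 genes had log2 fold changes nearer to 0. Hspa5, the Hsp70 of the endoplasmic reticulum, was at 129, 124, 172 and 127 CPM in AAV8-Null and at 124, 129 and 126 CPM in AAV8-IGFBP1, so that 6 of the 7 libraries lay close together and AAV8-Null library 3 stood above them. Its log2 fold change was -0.12 with SE 0.11 (edgeR adjusted p = 0.698). Hspa9, the mitochondrial Hsp70, was at 497, 406, 462 and 522 CPM in AAV8-Null and at 387, 420.4 and 436 CPM in AAV8-IGFBP1. These groups overlapped at AAV8-Null library 2, and the log2 fold change was -0.19 with SE 0.09 (edgeR adjusted p = 0.430).

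Of the 3 Hsp110 genes, Hspa4l alone had groups that did not overlap. Hspa4l was at 16.4, 13.7, 18.1 and 11.3 CPM in AAV8-Null and at 10.7, 10.3 and 11.3 CPM in AAV8-IGFBP1, and AAV8-Null library 4 and AAV8-IGFBP1 library 3 were equal to the digits shown. Its log2 fold change was -0.47 with SE 0.15 (edgeR adjusted p = 0.242, DESeq2 adjusted p = 0.0853). Hsph1, the heat-inducible exchange factor also called Hsp105, was at 142, 140.4, 183 and 110.3 CPM in AAV8-Null and at 147, 105 and 121 CPM in AAV8-IGFBP1, and its groups overlapped widely. Its log2 fold change was -0.21 with SE 0.18 (edgeR adjusted p = 0.692), and that of Hspa4 was -0.02 with SE 0.07 (edgeR adjusted p = 0.923).

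Of the cytosolic Hsp90 pair, which holds kinases and steroid receptors in an activatable state, the inducible gene varied more. Hsp90aa1 was at 104, 95.997, 181 and 59.2 CPM in AAV8-Null and at 52.9, 54.8 and 65.4 CPM in AAV8-IGFBP1. AAV8-Null library 3 was highest and AAV8-Null library 4 lay among the treated libraries, with a log2 difference of -0.93 ± 0.38 (SE; edgeR adjusted p = 0.386). Without AAV8-Null library 3 it was -0.58. Hsp90ab1, the constitutive gene, was at 1223, 1287, 1457 and 1128 CPM in AAV8-Null and at 1169, 1094 and 1127 CPM in AAV8-IGFBP1, a difference on the log2 scale of -0.17 ± 0.09 (SE; edgeR adjusted p = 0.464). Hsp90b1, the Hsp90 of the endoplasmic reticulum, was at 97.4, 97.02, 132 and 101 CPM in AAV8-Null and at 99.3, 102 and 92.6 CPM in AAV8-IGFBP1. As for Hspa5, AAV8-Null library 3 stood above the other 6, and the log2 fold change was -0.12 with SE 0.11 (edgeR adjusted p = 0.691).

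The mitochondrial chaperonin genes lay close to equal. Hspd1, the Hsp60 subunit, was at 206, 182, 213 and 196 CPM in AAV8-Null and at 189, 189 and 199 CPM in AAV8-IGFBP1, a difference on the log2 scale of -0.05 ± 0.07 (SE; edgeR adjusted p = 0.801). Hspe1, its Hsp10 lid, was at 48.7, 42.8, 48.7 and 40.3 CPM and at 39.7, 41.3 and 43.9 CPM, a difference on the log2 scale of -0.12 ± 0.08 (SE; edgeR adjusted p = 0.601). Both pairs of groups overlapped. 

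J-domain genes had a median log2 fold change near that of all genes, with exceptions among the DNAJA and DNAJB genes. Of 45 members 37 were tested, and their median was -0.01, against -0.00 over all genes. Of the 37, 23 lay below 0, against 50.1% of all genes. edgeR called 0 of the 37, as did DESeq2 and limma-voom. At an unadjusted p under 0.05 edgeR gave 5, each below 0, against 6.91% of all genes in that direction. As shares of the 37, both the 23 and the 5 exceeded the shares of all genes. Dnaja1, the cytosolic partner of Hspa8 and of the inducible Hsp70, was at 70.4, 72.0, 115 and 45.0 CPM in AAV8-Null and at 38.4, 40.5 and 41.7 CPM in AAV8-IGFBP1. The 3 treated libraries lay close together below the controls, which spread widely, and the log2 fold change was -0.91 with SE 0.30 (edgeR adjusted p = 0.311). Without AAV8-Null library 3 it was -0.64. Dnaja4 was at 106, 72.4, 87.1 and 104 CPM in AAV8-Null and at 62.8, 58.3 and 83.0 CPM in AAV8-IGFBP1, with an overlap at AAV8-IGFBP1 library 3. The log2 fold change of Dnaja4 was -0.44 with SE 0.17 (edgeR adjusted p = 0.347).

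Dnaja2 and the mitochondrial Dnaja3 lay nearer to 0. Dnaja2 was at 198, 209, 211 and 206 CPM in AAV8-Null and at 214, 203 and 212 CPM in AAV8-IGFBP1, a difference on the log2 scale of 0.02 ± 0.05 (SE; edgeR adjusted p = 0.893). For Dnaja3 the log2 fold change was -0.12 with SE 0.07 (edgeR adjusted p = 0.504).

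Dnajb1, the Hsp40 that is induced with Hspa1a and Hspa1b, was at 17.4, 27.3, 21.1 and 4.82 CPM in AAV8-Null and at 4.32, 5.59 and 10.5 CPM in AAV8-IGFBP1. AAV8-Null library 4 lay among the treated libraries, and the other 3 controls lay above them. Its log2 fold change was -1.38 with SE 0.64 (edgeR adjusted p = 0.454), and -1.84 without AAV8-IGFBP1 library 3. Dnajb4 was at 70.7, 55.5, 77.3 and 48.8 CPM in AAV8-Null and at 44.6, 46.1 and 53.6 CPM in AAV8-IGFBP1, a difference on the log2 scale of -0.39 ± 0.16 (SE; edgeR adjusted p = 0.376). AAV8-Null library 4 was again the control within the range of the treated libraries.

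Dnajb2, a J-domain protein with ubiquitin-interacting motifs, was at 68.0, 66.6, 76.5 and 65.8 CPM in AAV8-Null and at 60.9, 60.1 and 56.5 CPM in AAV8-IGFBP1. Its groups did not overlap, and the log2 fold change was -0.23 with SE 0.07 (edgeR adjusted p = 0.212, DESeq2 adjusted p = 0.105). Dnajb12, a membrane protein of the endoplasmic reticulum, was the only member higher in each treated library than in any control, at 78.3, 74.5 and 79.5 CPM against 65.1, 73.7, 73.0 and 70.6 CPM. The log2 fold change of Dnajb12 was 0.13 with SE 0.06 (edgeR adjusted p = 0.406). Dnajb5, the DNAJB gene with the highest mean CPM, was at 188, 202, 221 and 206 CPM in AAV8-Null and at 167, 202 and 209 CPM in AAV8-IGFBP1, with overlapping groups and a log2 difference of -0.08 ± 0.09 (SE; edgeR adjusted p = 0.748). Dnajb9, an endoplasmic reticulum partner of Hspa5, had means of 29.1 ± 3.58 (SD, n = 4) and 29.0 ± 2.54 CPM (SD, n = 3), and its log2 fold change was -0.01 with SE 0.10 (edgeR adjusted p = 0.987).

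Most DNAJC genes had log2 fold changes near 0. Of 24 tested members of the 28, 13 were below 0 and 11 above it, the range was -0.21 to 0.11 and the median -0.01. edgeR called 0 and gave 1 at an unadjusted p under 0.05, and DESeq2 and limma-voom called 0. That gene was Dnajc7, a cochaperone of both Hsp70 and Hsp90, which was at 77.3, 70.3, 82.6 and 84.5 CPM in AAV8-Null and at 62.5, 72.5 and 68.3 CPM in AAV8-IGFBP1. Its groups overlapped at AAV8-Null library 2, and its log2 fold change was -0.21 with SE 0.08 (edgeR adjusted p = 0.312). The log2 fold changes of Dnajc4, Dnajc11 and Dnajc27 were -0.15, 0.09 and 0.10, with edgeR adjusted p-values of 0.558, 0.614 and 0.638.

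Hsf1, the regulator of the inducible members, was at 41.5, 46.3, 40.9 and 42.2 CPM in AAV8-Null and at 43.0, 39.2 and 41.7 CPM in AAV8-IGFBP1. The groups overlapped, and the log2 fold change of its mRNA was -0.05 with SE 0.06 (edgeR adjusted p = 0.807).

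Members known to be heat-inducible were set beside those of the organelles, in sets chosen after their values were seen and so given without a test. Hspd1 and Hspe1 stand in both the heat-inducible and the mitochondrial set. The 12 heat-inducible genes were Hspa1a, Hspa1b, Dnajb1, Hsph1, Hsp90aa1, Hspb1, Cryab, Bag3, Dnaja1, Hspa8, Hspd1 and Hspe1. Each had a log2 fold change below 0, from -2.68 to -0.05 with a median of -0.67. Below 0 were also 6 of the 10 endoplasmic reticulum genes and 6 of the 8 mitochondrial genes. The share was 74.6% over the tested members and 50.1% over all genes. The 10 endoplasmic reticulum genes had a median log2 fold change of -0.02 and a range of -0.12 to 0.13, and the 8 mitochondrial genes a median of -0.04 and a range of -0.19 to 0.09. AAV8-Null library 3 was the highest library for 9 of the 12 heat-inducible genes, and AAV8-IGFBP1 library 1 the lowest for 7 and library 2 for 4. AAV8-Null library 3 was also highest for 6 of the 10 endoplasmic reticulum genes, and for 1 of the 8 mitochondrial genes. AAV8-IGFBP1 library 1 was lowest for 1 of the 10 and for 5 of the 8. The median over the 12 genes of log2 CPM centred on the 7 libraries was 0.36, 0.06, 0.50 and -0.17 in AAV8-Null libraries 1 to 4 and -0.48, -0.50 and -0.02 in AAV8-IGFBP1 libraries 1 to 3. By this measure AAV8-Null library 4 lay below AAV8-IGFBP1 library 3.

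Immediate early genes, which are transcribed soon after a stimulus, also varied across libraries. Their summed level was 450.0, 604, 608 and 334 CPM in AAV8-Null libraries 1 to 4 and 297, 332 and 458 CPM in AAV8-IGFBP1 libraries 1 to 3. AAV8-Null library 2 was the highest library for 12 of the 17 genes and AAV8-Null library 3 for 4, whereas 9 of the 12 heat-inducible genes were highest in AAV8-Null library 3. The lowest library was AAV8-IGFBP1 library 1 for 9 of the 17 and AAV8-Null library 4 for 5. Of 16 tested, 14 had a log2 fold change below 0, with a median of -0.52. edgeR called 0 and gave 3 at an unadjusted p under 0.05, and DESeq2 and limma-voom called 0. Atf3 and Klf4 had the lowest p-values, with log2 differences of -1.43 and -1.14 (edgeR adjusted p = 0.247 and 0.285). Groups did not overlap for 2 of the 16, Atf3 and Egr2, both lower in AAV8-IGFBP1, against 12.3% of all genes. The part of the immediate early genes in the values of the chaperone genes was not tested.

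Other genes of the folding network had a median near that of all genes. Across 8 lists of exchange factors, Hsp90 cochaperones, chaperonin and prefoldin subunits, heat shock factors, endoplasmic reticulum and mitochondrial folding genes, partners of Bag3 in autophagy and J-domain genes with other symbols, 97 of 99 genes were tested. edgeR called 0 of them and gave 6 at an unadjusted p under 0.05, against 12.9% of all genes. DESeq2 called 1 lower and limma-voom 0. Groups did not overlap for 5 of the 97, against 12.3% of all genes. Among these, Bag2, Cacybp, Cct7 and Flna were lower in AAV8-IGFBP1 and Fkbp8 was higher. Log2 fold changes were above 0 for 38 and below 0 for 59, with a median of -0.02. The gene that DESeq2 called was Cacybp, which encodes a protein that binds calcyclin and Siah1, with a log2 difference of -0.23 (DESeq2 adjusted p = 0.0406, edgeR adjusted p = 0.149). Bag2, an exchange factor related to Bag3, had a log2 difference of -0.24 (edgeR adjusted p = 0.172), and its groups did not overlap. Fkbp8, an Hsp90 cochaperone of the mitochondrial outer membrane, was higher in each AAV8-IGFBP1 library than in any AAV8-Null library, with a log2 difference of 0.16 (edgeR adjusted p = 0.289).

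The subunits of the cytosolic chaperonin TRiC, which folds actin and tubulin, were close to equal, with log2 fold changes of -0.09 for Cct3 and -0.08 for Cct7 (edgeR adjusted p = 0.527 and 0.611). Hsf2, a second heat shock factor, had a log2 difference of 0.05 (edgeR adjusted p = 0.897). Chac1, a glutathione-degrading enzyme of the unfolded protein response, was at 9.46, 37.9, 12.7 and 22.9 CPM in AAV8-Null and at 87.7, 34.4 and 41.5 CPM in AAV8-IGFBP1, with overlapping groups and a log2 difference of 1.39 (edgeR adjusted p = 0.412). Ddit3, a transcription factor of the same response, had a log2 difference of -0.34 (edgeR adjusted p = 0.425). For the mitochondrial protease subunit Afg3l2 it was -0.15 (edgeR adjusted p = 0.386), and for Flna, the filamin held by the Bag3 complex in many cells, -0.39 (edgeR adjusted p = 0.414).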

How the data were processed

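The 7 quadriceps RNA libraries were put into their groups (4 AAV8-Null, 3 AAV8-IGFBP1) by title. The authors deposited estimated counts per gene symbol, and 5617 to 6277 values per library were not whole (tolerance 1e-06). Salmon 1.10.1, STAR 2.7.9a, R 4.2.2, Trim Galore 0.6.7 and cutadapt 3.4 are listed without roles, with the build GRCm39, per the submitters' processing notes. Neither strand setting nor annotation release is given in the sources used here. Reads of overlapping or antisense genes may therefore be shared between them.

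Counts were rounded and tested with edgeR 4.0.16 in R 4.3.3: filterByExpr (minimum count 10, minimum total 15), TMM scaling, glmQLFit (robust, newer quasi-likelihood method) and glmQLFTest on group, with Benjamini-Hochberg adjustment over 14935 genes and a threshold of 0.05. The SE of a log2 fold change is its size over the square root of F. CPM uses TMM-scaled totals, and log2 CPM a prior count of 2. A count of 0 allows 3 counts, or 0.0586 to 0.0770 CPM, which covers counting error only. No 2 libraries of a group were alike within counting error (chi-square over its degrees of freedom, 22.2 to 60.0). The model was tested on simulated data.

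The members, lists and tests were chosen with earlier results of these data known. The text names, in each role, the 4 tested members with the lowest unadjusted p and the member with the highest mean CPM. It also names 20 classical chaperone genes and, from the other lists, some of the 2 genes per list with the lowest p. A tested member is counted but not reported here. Others are named as counts of 5 or fewer or as non-overlapping. Lengths are those of the longest protein-coding transcript of GENCODE M21 (GRCm38). Alternatives were DESeq2 1.42.0, limma-voom (limma 3.58.1), other scalings and count filters, robust set to FALSE, Hspa1a and Hspa1b summed, the replicate number as a block and each library left out. The older quasi-likelihood method was added after seeing the data.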

Additional observations from a re-analysis of the deposited data

Results flagged for a closer look

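Within AAV8-Null, each of 36 named members was examined for a library far from the other 3 of its group, and 2 had one. Hspa5 was at 171.9 CPM in AAV8-Null library 3 against 124 to 129 CPM in the other 3 controls, so that the gap was 0.910 of the group's range, above Dixon's 95% critical value for 4 samples. Hsp90b1 was at 131.6 CPM in the same library and at 97.02 to 101 CPM in the others, a gap of 0.877 of the range. Chance alone flags about 1 in 20 such groups, and these genes are not independent of each other. Both encode chaperones of the endoplasmic reticulum, and both promoter windows hold the endoplasmic reticulum element. Dnajc3, the other member with a match to this element, was not among the 36. It was at 36.8, 43.4, 45.3 and 36.7 CPM in AAV8-Null libraries 1 to 4, so library 3 lay close to library 2. The part of this element in the values was not tested.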

How the results depend on the processing

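The count of all genes called was 87 in the reported fit, 451 with DESeq2, 157 with no filter on low counts and 14 to 79 with 1 library left out. It was 14 and 44 without AAV8-Null libraries 1 and 3, and 27, 30 and 49 without AAV8-IGFBP1 libraries 1, 2 and 3. Members called numbered 0 in edgeR and 3 with DESeq2, and 0 in each other alternative run. The median log2 fold change of the members stayed between -0.08 and -0.04. Members whose groups did not overlap numbered 7, and 8 to 18 with 1 library left out (11.9% to 26.9%, against 15.9% to 22.4% of all genes in those fits). Of the log2 fold changes of single named members under an alternative, 598 kept their direction and side of the threshold, 3 passed it with DESeq2 (Cryab, Hspb1 and Hspb6) and 9 changed sign, all near 0. These were Dnajb9, at 0.001013 with limma-voom, 0.000796 with no filter, 0.0339 with the replicate block, and -0.0560 to 0.0647 with 1 library left out; Dnajb5, at -0.147 to 0.00824; and Hspa4, at -0.0594 to 0.0227, both with 1 library left out. The causes were not tested. The older quasi-likelihood method, added after seeing the data, called 83 genes and 0 members.

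With the replicate number as a block, 4 genes and 0 members were called. Deviations of same-numbered libraries correlated between -0.0984 and 0.0682, and 0 of 3 numbers correlated best with their own. These values showed no pairing by number, but 3 pairs are too few to exclude one. The 9 members left untested had too few counts for the filter, and no statement is made on them.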
